A study of Homo sapiens with 10 samples.

Results

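Interferon-stimulated genes are the genes that a cell switches on after it senses interferon. Here 36 of them were followed in 2 human non-small cell lung cancer lines. They were chosen by name, as a list of well-known members of the response, from the 19775 genes that the arrays measure with a probe set of their own. A probe set is a group of array probes read together, and each gene was followed through its brightest one that names a single gene. Of the 36 genes, 35 had such a probe set, and STAT2 was not analysed here. A filter on dim signal, set at an intensity of 19.7, left 26 of them among 12979 genes that were tested. The 9 genes below it were IFIT1, OAS2, MX2, BST2, IFI44, IFI44L, RSAD2, TRIM22 and XAF1, and they are given by their values only.

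HTB-182 is labelled as a squamous cell carcinoma line and A549 as an adenocarcinoma line. Each line gave 5 arrays, 1 per treatment, so 10 arrays in all. Cells were held for 4 h in 10% serum stripped with charcoal, then exposed for 3 h to ethanol vehicle (0.1%), estradiol (1 µM), its conjugate with bovine serum albumin (estradiol-BSA, 1 µM), or either estrogen form together with tamoxifen (10 µM). Estradiol-BSA was used in the study to reach estrogen receptors at the cell surface, and tamoxifen as an inhibitor of estrogen receptors. All cells were within 10 passages of thawing. The source descriptions give no array for albumin alone or tamoxifen alone, and no interferon treatment. Groups follow the source descriptions, since titles for estradiol plus tamoxifen mention tamoxifen only. For A549 those descriptions carry both line names, and the entry for the cell line is A549 alone. Replicate cultures are not mentioned, so p-values measure the spread between these single arrays, which may be technical.

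The median intensity of an array ran from 17.5 to 21.5. The A549 vehicle array stood apart from its line, where 263 genes differed by 2-fold or more from the mean over its line's remaining arrays, against 23 to 35 for each other A549 array and 0 to 3 for the HTB-182 arrays. SOX2, a squamous lineage factor, read 4152 ± 229 in HTB-182 and 135 ± 59.6 in A549 (SD, n = 5 arrays per line, as for every mean ± SD that follows). The squamous keratin KRT5 was near the filter in both lines, at 22.1 ± 4.21 and 26.1 ± 3.93, and KRT14, DSG3 and PKP1 were below it. Of the alveolar and adenocarcinoma markers, KRT7, KRT8, KRT18, MUC1 and NAPSA read higher in A549 by mean (KRT7 3411 ± 581 against 18.1 ± 4.37). SFTPB (32.2 ± 1.46 in HTB-182, 27.8 ± 4.15 in A549) and SFTPC (48.0 ± 5.11 and 41.6 ± 12.7) leaned the other way, and NKX2-1 was below the filter in both lines. Of the blood and endothelial markers, PTPRC, VWF and CDH5 were below the filter in both lines. CD3E, CD79A and PECAM1 were slightly above it in both, with means of 21.5 to 29.2, and CD14 read 10.6 ± 1.46 in HTB-182 and 82.2 ± 36.6 in A549.

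Type I interferons bind the receptor pair IFNAR1 and IFNAR2, and type III interferons bind IFNLR1 with IL10RB. The kinases JAK1 and TYK2 then start a signal that leads to a complex holding STAT2 and IRF9, which binds a DNA element called the interferon-stimulated response element. Another element, the gamma-activated site, is used mainly after type II interferon. The induced proteins detect viral RNA, degrade it, block its translation or tag proteins with ISG15, and many epithelial tumour lines carry a basal level of them without added interferon.

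The promoters carry this element in their sequence. Of the 36 genes, 29 had an entry in the RefSeq promoter table (GRCh38.p14), which covers 250 bases before to 50 after each annotated start. The response element was searched as GAAA, any 2 bases and GAAA again, on both strands (TTTC, any 2 bases, TTTC on the other) and with overlaps counted. It stood in 20 of the 29 (69.0%), against 4.38% of all 27305 genes in the table. TTCNNNGAA, the letters of the gamma-activated site, which read the same on both strands, stood in 10 of 29 (34.5%), against 9.38% of all genes. In 18 of the genes a response-element match lay wholly before the start, and 14 held at least 2 matches in 1 promoter. The match was present in 6 of the 11 with an entry among genes higher in A549, in 5 of 6 lower in A549, and in 4 of 5 tested without a call. Below are the 170 bases before the start of 6 genes that lie at both ends of the comparison between the lines, written 5′ to 3′ on the gene's own strand, with the response-element matches in capitals. IFI27, at chr14:94110566-94110735 (+), IFIH1, at chr2:162318685-162318854 (−), and ISG15, at chr1:1013327-1013496 (+), were lower in A549. IFITM1, at chr11:313870-314039 (+), IFIT3, at chr10:89327827-89327996 (+), and IFIT5, at chr10:89414398-89414567 (+), were higher.
IFI27: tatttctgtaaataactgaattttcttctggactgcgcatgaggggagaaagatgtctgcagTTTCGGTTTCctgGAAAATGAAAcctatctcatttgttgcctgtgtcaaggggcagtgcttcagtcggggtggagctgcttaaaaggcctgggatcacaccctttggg
IFITM1: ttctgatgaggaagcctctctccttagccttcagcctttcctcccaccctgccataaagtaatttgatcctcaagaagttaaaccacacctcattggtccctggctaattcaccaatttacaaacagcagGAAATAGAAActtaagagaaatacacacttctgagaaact
IFIT3: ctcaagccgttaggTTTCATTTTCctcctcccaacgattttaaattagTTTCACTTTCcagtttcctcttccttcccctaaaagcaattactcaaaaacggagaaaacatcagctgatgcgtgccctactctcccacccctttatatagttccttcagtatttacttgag
IFIH1: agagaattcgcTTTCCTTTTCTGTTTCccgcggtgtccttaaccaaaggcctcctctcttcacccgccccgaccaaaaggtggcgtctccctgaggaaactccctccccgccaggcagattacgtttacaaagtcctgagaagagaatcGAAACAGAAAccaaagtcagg
IFIT5: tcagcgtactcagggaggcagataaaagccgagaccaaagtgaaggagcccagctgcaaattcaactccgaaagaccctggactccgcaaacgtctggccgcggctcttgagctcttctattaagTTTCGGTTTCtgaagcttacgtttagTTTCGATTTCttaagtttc
ISG15: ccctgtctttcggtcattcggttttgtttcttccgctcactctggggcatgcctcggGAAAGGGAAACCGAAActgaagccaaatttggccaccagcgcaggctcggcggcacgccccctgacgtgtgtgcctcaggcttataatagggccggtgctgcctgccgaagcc
In IFIH1 and ISG15 a pair of matches overlaps and prints as 1 longer run of capitals. In these windows IFI27, IFIT3 and IFIT5 hold a pair of separate matches each, and IFITM1 holds 1. The promoter entries of OAS1, HERC6 and SAMHD1 do not hold these letters. A match is a run of letters, and nothing about binding was measured here.

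**Figure D1:**
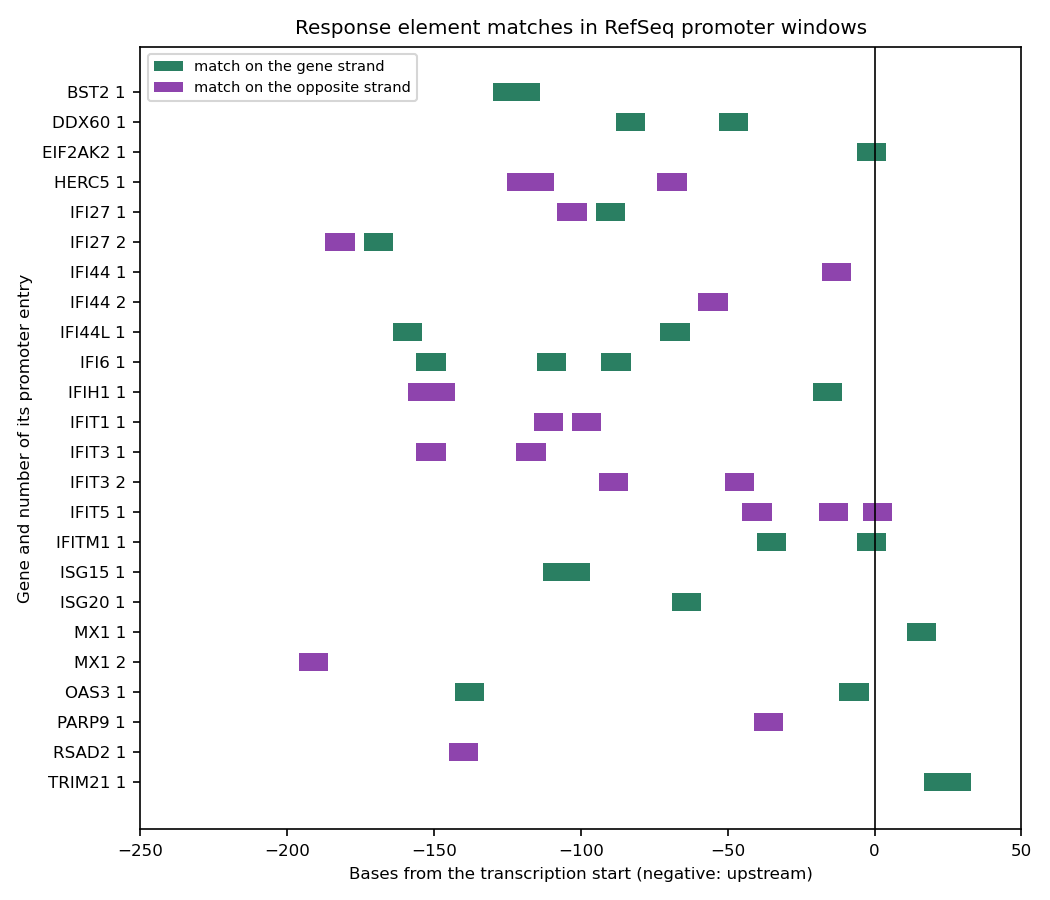
Position of each response-element match in the promoters of the interferon-stimulated genes, in bases from the annotated start (x axis), 1 row per promoter. Of 44 matches 38 lie wholly before the start; promoter entries of a gene can overlap, so the 44 are 41 distinct positions, and bars of overlapping matches run together.

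The first comparison was between the lines. Interferon-stimulated genes differed between A549 and HTB-182 in both directions, with OAS1, IFIT5 and HERC6 among those higher in A549 and SAMHD1, ISG15 and IFI6 among those lower. Of the 26 tested genes, 21 reached the filter by mean intensity in both lines. Among these, 10 were higher in A549, 4 were lower and 7 were not called (limma, Benjamini-Hochberg adjusted p under 0.05). By the same rule 63.4% of all 11773 genes that reached the filter in both lines were called, 31.4% higher and 32.0% lower, so the number of members called is close to what the lines show in general. Over all 12979 tested genes the share was 65.7%, 33.6% higher and 32% lower. The median difference, as log2 A549 minus HTB-182, was 0.17 over the 21 members and 0.01 over the 11773 genes. MX1 is among the 4 lower, but its A549 mean of 19.8 reached the filter of 19.7 only with the vehicle array. On the log scale that the filter uses, its A549 mean lay below the filter. Its direction was thus fixed, and it is given without a p. The other 5 tested members, IFI27 and IFIH1 in HTB-182 and IFIT2, IFIT3 and IFITM1 in A549, reached the filter in the brighter line alone. They had to differ in that direction to be tested, so they are described without a p. Their fold is a lower bound, from the mean of the brighter line against the filter level or, where an array of the dimmer line lay above it, that array's own value. In a bulk culture, fewer expressing cells and less RNA per cell cannot be told apart. Differences are on the scale of log2(intensity + 16), which understates the change of dim genes.

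**Figure D2:**
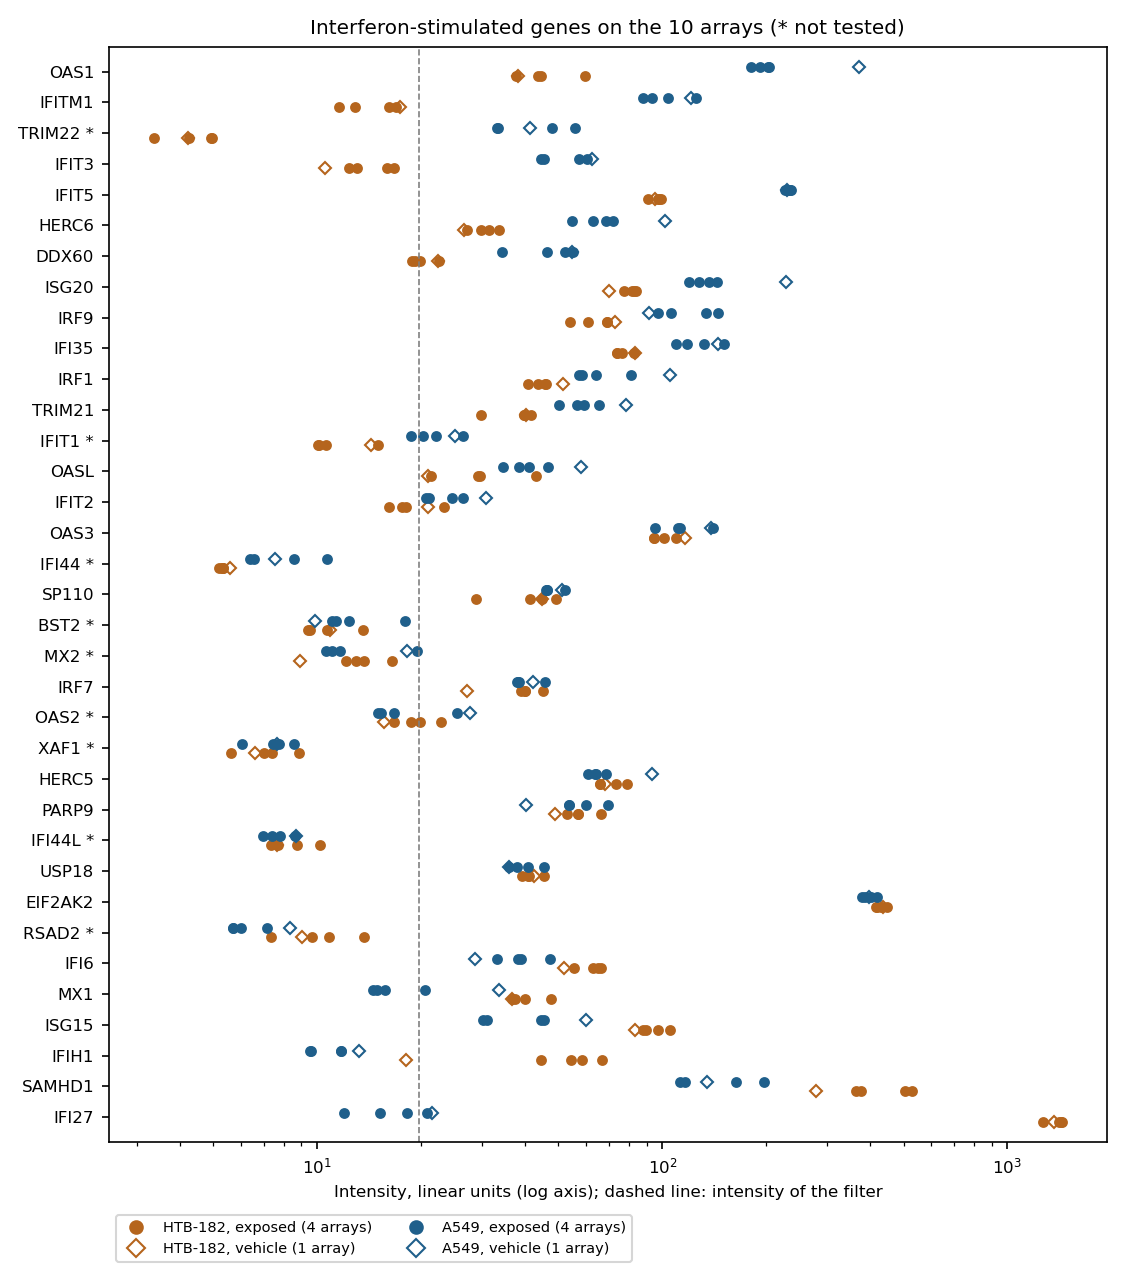
Intensity (x axis, log scale) of the 35 interferon-stimulated genes with a probe set on each of the 10 arrays; filled circles are exposed arrays, open diamonds vehicle, orange HTB-182, blue A549, the dashed line the filter and asterisks untested genes. IFI27 sits at 1267 or above in HTB-182 and at 21.5 or below in A549, while OAS1, IFITM1 and TRIM22 are separated the other way.

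Among the RNA sensors, IFIH1 encodes MDA5, which detects long double-stranded RNA. In HTB-182 it read 18.1 with vehicle, 67.0 with estradiol, 54.4 with estradiol-BSA, 58.4 with estradiol plus tamoxifen and 44.4 with estradiol-BSA plus tamoxifen. In A549 the same arrays gave 13.2, 11.7, 11.7, 9.55 and 9.59, all below the filter. The lines did not overlap, but the HTB-182 vehicle array lay far nearer to A549 than the exposed arrays did. IFIH1 was at least 1.73-fold lower in A549 over the 5 arrays of each line. Single pairs of arrays ran from -1.58 to -0.22 on the log2 scale, the smallest being the vehicle pair.

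DDX60, a helicase that works with the RNA sensors, read 22.3, 18.8, 19.2, 19.9 and 22.6 in HTB-182 in the same order of treatments, and 54.8, 34.3, 52.1, 46.3 and 55.1 in A549. Every A549 array lay above every HTB-182 array (log2 0.81, SE 0.09, 1.75-fold, limma adjusted p = 8.91e-06). The HTB-182 mean of 20.6 was near the filter, and the arrays at 18.8 and 19.2 were below it. EIF2AK2 encodes PKR, the kinase that stops translation on double-stranded RNA. It read 429.6 ± 13.5 in HTB-182 and 397 ± 15.7 in A549, and was not called (log2 -0.11, limma adjusted p = 0.272). Its other 2 probe sets above the filter gave 0.17 and 0.16, of the opposite sign.

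IFIT proteins bind viral RNA and hinder its translation. IFIT3 read 10.5, 13.0, 15.9, 16.7 and 12.4 in HTB-182, all below the filter, and 62.4, 45.3, 44.4, 57.4 and 60.7 in A549, at least 1.95-fold higher. The arrays of the lines did not overlap, and another probe set of IFIT3 gave a log2 difference of 0.38. IFIT5 read 95.1, 90.6, 98.9, 97.3 and 97.6 in HTB-182 and 230.4, 226, 236, 231 and 234 in A549 (log2 1.15, SE 0.09, 2.21-fold, limma adjusted p = 7.99e-07). Its other probe set gave 0.97. IFIT2 read 19.2 ± 2.85 and 24.7 ± 4.15, close to the filter, with the lines overlapping and a bound of 1.11-fold. IFIT1 was not tested. Its HTB-182 arrays read 12.01 ± 2.44, against 22.5 ± 3.21 for A549.

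The OAS enzymes make oligoadenylates that activate the ribonuclease RNase L. OAS1 read 38.1 with vehicle, 37.6 with estradiol, 44.6 with estradiol-BSA, 43.6 with estradiol plus tamoxifen and 59.8 with estradiol-BSA plus tamoxifen in HTB-182. In A549 the values were 373, 203, 203, 191 and 180.3, with vehicle the highest by far. OAS1 was higher in A549 by a log2 of 1.98 (SE 0.18, 3.95-fold, limma adjusted p = 1.58e-06), with pairs from 1.37 to 2.85, and its other probe set above the filter gave 1.55. OASL, a relative without the synthetase activity, read 28.8 ± 8.97 and 43.7 ± 9.18, higher in 4 of 5 pairs (log2 0.42, limma adjusted p = 0.0287), and lost its call in 9 of 19 other settings. OAS3 read 103 ± 9.59 and 119 ± 19.2 and was not called (log2 0.17, limma adjusted p = 0.189). OAS2 was not tested, at 18.7 ± 2.85 and 19.98 ± 6.04. OAS1, OAS3 and OAS2 are adjacent on the chromosome, so within this cluster a gene with a large line difference lies next to one without a call.

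MX1 encodes a dynamin-like GTPase that traps viral nucleoproteins. It read 36.7, 36.7, 40.0, 37.5 and 47.4 in HTB-182 and 33.6, 15.7, 14.9, 20.5 and 14.5 in A549. Only the vehicle array of A549 came near HTB-182. MX1 was lower in A549 by a fitted log2 of -0.66 (1.58-fold), with pairs from -1.06 to -0.09. Its A549 arrays at 15.7, 14.9 and 14.5 were below the filter, and so was its A549 mean on the log scale. MX1 thus had to be lower in A549 to be tested, and it is described without a p. MX2, which restricts retroviruses, was not tested, at 12.8 ± 2.75 and 14.2 ± 4.27.

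ISG15 is a ubiquitin-like protein, HERC5 is the main ligase that attaches it, and USP18 removes it and also restrains the type I receptor. ISG15 itself read 83.5, 89.7, 105, 88.2 and 97.4 in HTB-182 and 60.3, 31.0, 45.4, 44.6 and 30.3 in A549, with no overlap (log2 -0.92, SE 0.13, 1.90-fold, limma adjusted p = 8.38e-05). HERC5 was level, at 70.4 ± 5.75 and 70.3 ± 13.1 (log2 -0.01, 95% interval -0.25 to 0.23, limma adjusted p = 0.932). USP18 was close too, at 41.9 ± 2.32 and 39.2 ± 3.98 (log2 -0.07, 95% interval -0.26 to 0.12, limma adjusted p = 0.501). HERC6, the gene next to HERC5, read 26.6, 29.7, 31.5, 27.2 and 33.7 in HTB-182 and 102, 68.8, 72.0, 54.6 and 63.0 in A549 (log2 0.93, SE 0.12, 1.90-fold, limma adjusted p = 3.96e-05). The substrate tag and the HERC genes went in different directions, with ISG15 lower, HERC6 higher and HERC5 without a call.

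Of 3 tested transcription factors, 2 were higher in A549 (33.6% of all genes) and 1 was not called. IRF9, the DNA-binding partner of STAT2, read 73.0, 60.8, 69.2, 54.1 and 69.1 in HTB-182 and 91.7, 145, 134, 97.4 and 106 in A549 (log2 0.67, SE 0.12, 1.59-fold, limma adjusted p = 0.000543). IRF1, an activator that also responds to type II interferon, read 51.4, 40.8, 45.7, 43.6 and 45.9 in HTB-182 and 105, 80.9, 64.3, 57.4 and 58.4 in A549 (log2 0.51, SE 0.12, 1.43-fold, limma adjusted p = 0.00219). Neither gene overlapped between the lines. IRF7, which amplifies type I interferon production, read 38.3 ± 6.67 and 40.5 ± 3.30 and was not called (log2 0.07, limma adjusted p = 0.597).

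IFITM1 sits in membranes and blocks viral entry. It read 17.3, 12.9, 11.5, 16.1 and 16.9 in HTB-182, below the filter on every array, and 121, 125, 93.6, 104 and 88.0 in A549, at least 3.40-fold higher. Pairs of arrays ran from 1.66 to 2.29 on the log2 scale. Its neighbours IFITM2 and IFITM3 are close copies, so probes may pick up more than 1 of them, and both were higher in A549 as well, by 4.44 and 3.47. BST2, or tetherin, which holds budding virus at the cell surface, was not tested, at 10.8 ± 1.69 and 12.5 ± 3.16.

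IFI27, a mitochondrial and nuclear-envelope protein, read 1362, 1436, 1432, 1407 and 1267 in HTB-182 and 21.5, 11.95, 18.1, 20.8 and 15.2 in A549, where most arrays were below the filter. It was at least 38.4-fold lower in A549. The fitted log2 difference of -5.39 is no bound, and it ran from -6.25 to -4.15 over the alternatives, which include other constants added before the logarithm. IFI6, which protects against apoptosis, was also lower in A549, at 52.0, 64.9, 62.8, 55.6 and 66.4 in HTB-182 against 28.6, 47.2, 38.2, 38.9 and 33.1 (log2 -0.53, SE 0.09, 1.44-fold, limma adjusted p = 0.00046). IFI35 went the other way, at 83.6, 73.7, 76.5, 73.8 and 82.7 in HTB-182 and 145, 151, 109.7, 132 and 118 in A549 (log2 0.64, SE 0.11, 1.55-fold, limma adjusted p = 0.000301). IFI44 and IFI44L were dim in both lines, at most 10.7 and 10.2 on any array.

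SAMHD1 depletes the nucleotides that reverse transcription needs. It read 279, 531, 377, 363 and 506 in HTB-182 and 134, 197, 116, 163 and 113 in A549 (log2 -1.40, SE 0.15, 2.64-fold, limma adjusted p = 5.98e-06). Its other 3 probe sets above the filter gave -1.62, -2.14 and -1.41. ISG20, an exonuclease that degrades RNA, read 69.9, 81.6, 84.1, 77.2 and 83.0 in HTB-182 and 229, 136, 144, 119.5 and 128 in A549 (log2 0.78, SE 0.15, 1.72-fold, limma adjusted p = 0.000648), and its other probe set gave 0.80. TRIM21, an antibody receptor and ubiquitin ligase, read 40.3, 29.7, 39.8, 39.6 and 41.6 in HTB-182 and 78.7, 59.2, 56.5, 65.6 and 50.2 in A549 (log2 0.52, SE 0.11, 1.43-fold, limma adjusted p = 0.00109). SP110, a nuclear body protein, and PARP9, which works with the ligase DTX3L, were not called, at log2 differences of 0.17 and -0.03 (limma adjusted p = 0.147 and 0.834). DTX3L, the neighbour of PARP9, was higher in A549 by 0.80 (limma adjusted p = 0.000282).

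Some untested genes were far apart in level. TRIM22, a ligase that restricts several viruses, read 4.22, 3.37, 4.95, 4.25 and 4.93 in HTB-182 and 41.3, 47.9, 33.2, 33.3 and 55.8 in A549, without overlap. Its mean over both lines was below the filter, so no test was made. RSAD2, or viperin, and XAF1, an apoptosis factor, were dim in both, at 10.1 ± 2.33 and 6.57 ± 1.15 for RSAD2 and at 7.10 ± 1.19 and 7.496 ± 0.922 for XAF1. By mean intensity 21 of the 35 genes reached the filter in both lines, 2 in HTB-182 alone (IFIH1 and IFI27), 6 in A549 alone (IFIT1, IFIT2, IFIT3, OAS2, IFITM1 and TRIM22) and 6 in neither.

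**Figure D3:**
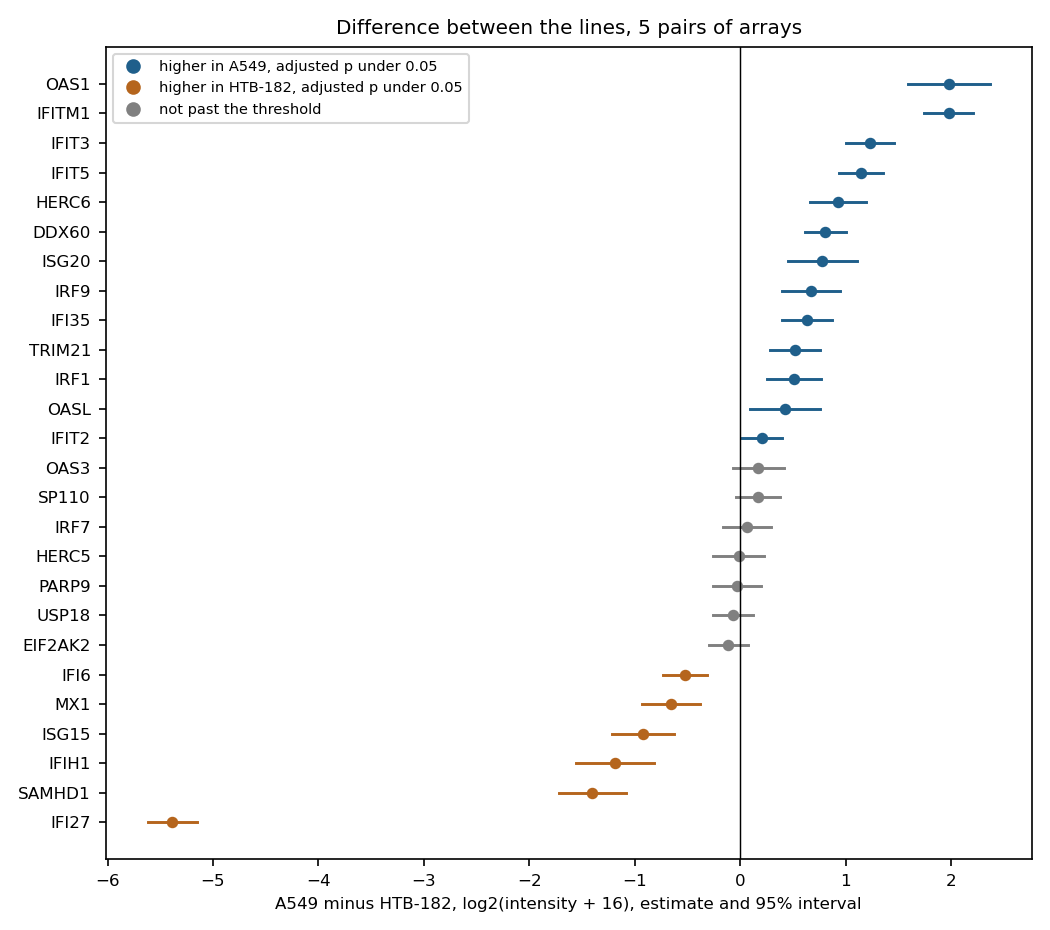
Line difference (log2 A549 minus HTB-182, x axis) of the 26 tested interferon-stimulated genes with its 95% interval from limma. OAS1 lies at 1.98 and SAMHD1 at -1.40, and the genes without a call have intervals that include 0; IFI27, IFIH1, IFIT2, IFIT3 and IFITM1 reached the filter in 1 line alone, so their fitted values are no bound.

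The rest of the pathway was counted from lists of genes chosen by textbook role, to be read against 33.6% of all genes higher and 32% lower in A549. None of the 10 interferon genes listed passed the filter, and the 9 with a probe set had means of at most 15.8. All 6 receptor genes were tested, and 3 were higher and 1 lower in A549, so 4 of 6 were called, against 65.7% of all genes. IFNGR1 (log2 0.89), IL10RB (0.88) and IFNAR2 (0.46) were higher, IFNAR1 was lower (-0.66), and IFNGR2 (-0.07) and IFNLR1 (-0.03) were not called. Of 6 tested kinases, STAT genes and IRF genes, 5 were higher in A549 (33.6% of all genes) and 0 lower (32%). JAK1 led them, at 176 ± 10.2 in HTB-182 and 1894 ± 222 in A549 (log2 3.31, 9.92-fold), followed by STAT3 (1.01), JAK2 (0.59) and IRF5 (0.47). TYK2 was not called (-0.24).

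Among 9 tested genes of nucleic acid sensing, 4 were higher and 3 lower in A549, against 33.6% and 32% of all genes. Of those lower, DHX58 (mean 23.9 in HTB-182, 18.5 in A549) and TICAM1 (28.1 and 19.1) reached the filter in HTB-182 alone. The filter fixed their direction. MAVS, the adaptor that IFIH1 signals through, was higher by 1.24 and the kinase TBK1 by 1.18, while IFI16, a DNA sensor, was lower by a log2 of -0.92. Of 5 tested genes that restrain the pathway, PIAS1 (0.56) was higher and PTPN11 (-0.56) lower. Of 19 tested interferon-induced genes outside the list of 36, 11 were higher and 6 lower, against 33.6% and 32% of all genes. ADAR is counted both here and among the sensing genes. In this count TRIM5, higher in A549 (mean 17.8 in HTB-182, 114 in A549), and TNFSF10, lower (25.3 and 18.1), reached the filter in the brighter line alone. The filter fixed the direction of both. IFITM2 read 44.3 ± 14.3 in HTB-182 and 1376 ± 549.3 in A549, and IFITM3 60.9 ± 17.2 and 836 ± 219. CMPK2, the neighbour of RSAD2, was the lowest in A549 of these, at 186 ± 37.0 against 24.7 ± 6.198 (log2 -2.30). This further set was thus also mixed in direction. By the brightest probe set of each gene, the line difference of JAK1 was larger than that of any of the 6 receptor genes. Other probe sets of these pathway genes were not compared.

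The next question was whether estrogen changed these genes in both lines. With the additive limma model, 0 of the 26 genes passed in estradiol against vehicle, estradiol-BSA against vehicle, either form plus tamoxifen against vehicle, or all 4 exposures against vehicle. The share over all genes was 0% in each, so this is not particular to the list. Smallest limma adjusted p values among the 26 were 0.913 for estradiol, 0.665 for estradiol-BSA, 0.786 for estradiol plus tamoxifen, 0.653 for estradiol-BSA plus tamoxifen and 0.527 for any exposure. Unadjusted p under 0.05 was reached by 5, 0, 1, 1 and 3 of them, and by 4.48%, 6.47%, 4.58%, 7.41% and 9.45% of all genes. The 5 and the 3 include IFIH1, which passed the filter only through the exposed HTB-182 arrays, so its place in them is no support. Median changes were -0.11, -0.07, -0.12, -0.07 and -0.11 for the list and -0.06, -0.07, -0.07, -0.06 and -0.07 for all genes. For a single treatment the 95% interval of a member's change, before adjustment over genes, extended by 1.30-fold each way at the median. Smaller changes common to both lines were thus not detectable with these arrays. After adjustment larger ones could also go without a call, and with estradiol SAMHD1 had a fitted change of 1.62-fold without one. No member was at least 1.5-fold from vehicle in the same direction in both lines. Over all genes that share was 0.0154% higher and 0% lower for estradiol, 0.0077% and 0.0308% for estradiol-BSA, 0% and 0.0385% for estradiol plus tamoxifen, 0.0077% and 0.0539% for estradiol-BSA plus tamoxifen, and 0% and 0.0077% for any exposure. The residual spread in this model is the difference in response between the lines, so a response of 1 line alone widens it.

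Estradiol and estradiol-BSA differ by the albumin carried by the second. They were compared at 1 µM and 3 h in 4 pairs of arrays, with and without tamoxifen in each line, with p-values adjusted over all genes. None of the 26 genes differed (smallest limma adjusted p = 0.999; 0 at an unadjusted p under 0.05, against 2.9% of all genes), with changes from -0.29 to 0.19. Over all genes 1 was called (0.0077%), ID1, an inhibitor of differentiation, lower with estradiol-BSA by a log2 of -1.01 (limma adjusted p = 0.0202). The 95% interval, before adjustment over genes, had a median reach of 1.201-fold to either side. Differences below that size were not detectable, larger ones could also go without a call, and equal action of the forms is not shown. In all 4 pairs IFIT5 (0.05), DDX60 (0.19), ISG20 (0.07) and HERC6 (0.12) were higher with estradiol-BSA, a pattern of 8.94% of all genes, and USP18 (-0.12) was lower, a pattern of 4.55%.

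Tamoxifen on top of estrogen gave 0 calls among the 26 genes and 0% over all genes (limma; 0 of 26 at an unadjusted p under 0.05, against 1.16% of all genes), with changes from -0.23 to 0.19. IRF9 (-0.23), IFIH1 (-0.15) and ISG20 (-0.10) were lower with tamoxifen in all 4 pairs, as were 5.13% of all genes. DDX60 (0.14) and HERC5 (0.12) were higher in all 4 pairs, as were 7.36% of all genes.

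Within each line the exposed arrays were then set against that line's vehicle array, as sizes without a test, since vehicle is a single array. In HTB-182 IFIH1 read 18.1 with vehicle, below the filter, and between 44.4 and 67.0 on the exposed arrays. Its mean over the exposed arrays was at least 2.003-fold above vehicle, with the filter level in place of the vehicle reading. By treatment the log2 difference from the vehicle reading was 1.28 with estradiol, 1.05 with estradiol-BSA, 1.13 with estradiol plus tamoxifen and 0.83 with estradiol-BSA plus tamoxifen. All 4 exposed arrays were at least 1.5-fold above vehicle in 3 genes of the whole array (0.0231%), and IFIH1 was the only member among them. IFIH1 passed the filter through these exposed arrays, so its place among the 3 genes is no support. Its other 2 probe sets were too dim to compare, so the values rest on 1 probe set.

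SAMHD1 ranked 8 in HTB-182, at 0.62 on average (1.54-fold), from 279 with vehicle to 531 with estradiol, 377 with estradiol-BSA, 363 with estradiol plus tamoxifen and 506 with estradiol-BSA plus tamoxifen. Its other probe sets changed by -0.05, 0.02 and 0.38. Apart from IFIH1, which was tested only through its exposed arrays, SAMHD1 was the only member at least 1.5-fold above vehicle on average. Over all genes that share was 0.077%. HTB-182 vehicle was the lowest of its 5 arrays in 11 members, IFIH1 among them (27.4% of all genes), and the highest in 5 (15%).

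In A549 most members read lower on the exposed arrays than on the vehicle array, as most genes did. The median change of exposed arrays from vehicle was -0.21 over the 26 members and -0.16 over all genes, and 0.04 and 0.03 in HTB-182. Vehicle was the highest of the 5 A549 arrays in 13 of 26 members, the same share as in all genes (49.5%), and the lowest in 3 (17.2%), IFI6, IRF9 and PARP9. On average 4 members were at least 1.5-fold below vehicle, against 6.56% of all genes, and 0 were that far above (4.73%). These were OAS1 (-0.89), ISG20 (-0.73), MX1 (-0.62) and IRF1 (-0.59). In OAS1 and ISG20 each of the 4 exposed arrays was at least 1.5-fold below vehicle, as in 1.39% of all genes. The A549 vehicle array is the one that stood apart, and its part in these values was not tested.

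**Figure D4:**
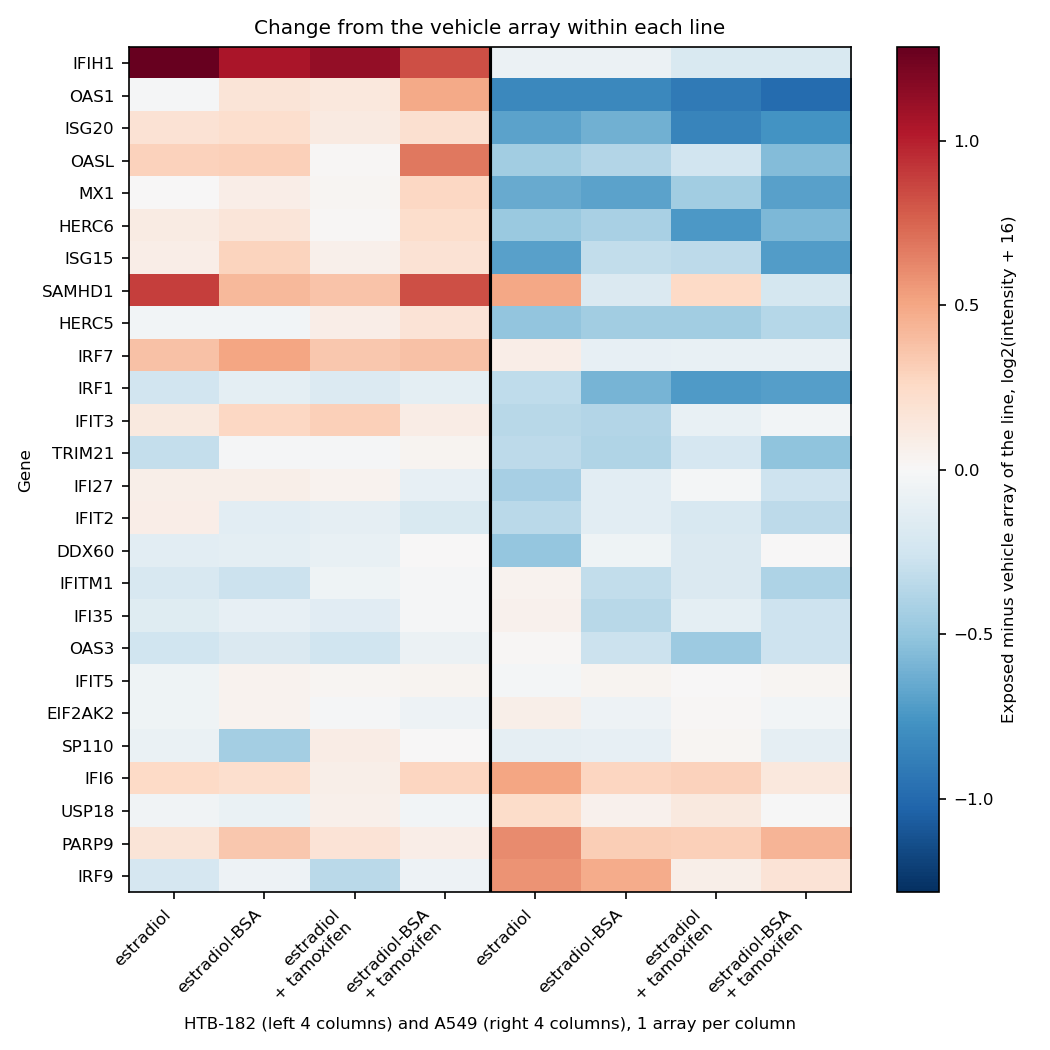
Change of each exposed array from the vehicle array of its line (colour, log2) for the 26 tested interferon-stimulated genes, 4 treatments per line. IFIH1 is raised in all 4 HTB-182 columns, and OAS1, ISG20, MX1 and IRF1 are lowered in A549.

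The other probe sets of these genes did not always go the same way. Both ISG20 probe sets read lower with exposure in A549 (-0.73 and -0.80), the other reading 218 with vehicle and 109 to 123 with exposure. For OAS1 the brightest probe set read lower (-0.89) and the other higher (1.28), from 24.1 with vehicle to 80.0 with estradiol, 86.7 with estradiol-BSA, 54.0 with estradiol plus tamoxifen and 113 with estradiol-BSA plus tamoxifen. IRF1 gave -0.59 and 0.40, and PARP9 0.42 and -0.60. Of 10 members with a second probe set above the filter, 4 had the same sign on both in A549, against 61.6% of 6051 genes, and 6 in HTB-182, against 54.1%. OAS1 was the only one of the 10 with at least 1.5-fold in opposite directions, which 0.298% of genes showed. For the line difference itself 9 of 10 had the same sign (80.7% of genes), the exception being EIF2AK2.

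**Figure D5:**
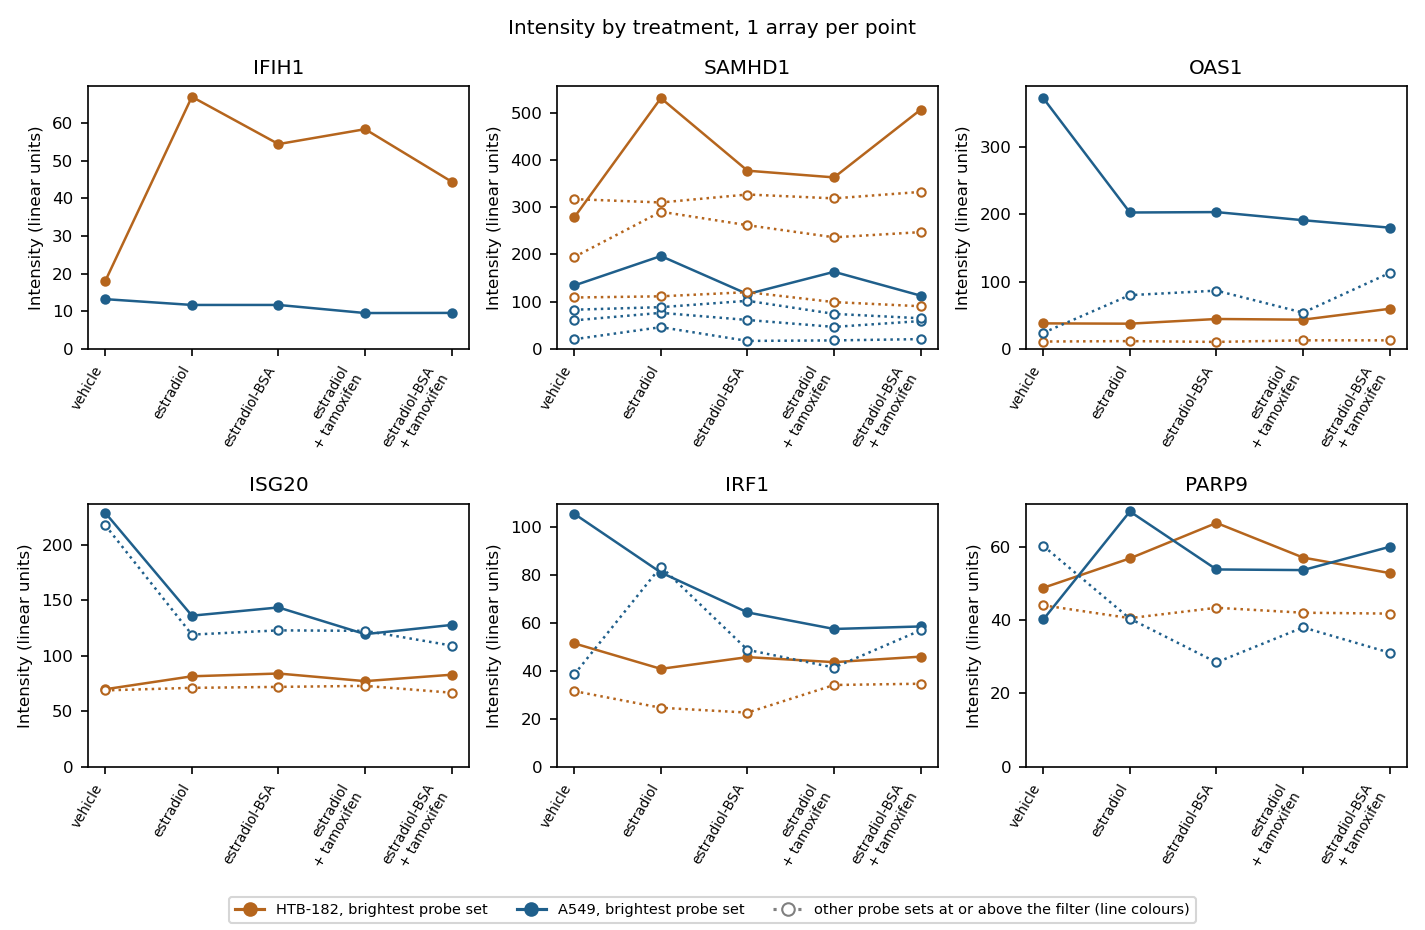
Intensity (y axis, linear) of 6 interferon-stimulated genes by treatment, 1 array per point; solid lines are the brightest probe set and dotted lines other probe sets above the filter. IFIH1 is higher on the exposed arrays of HTB-182, and in A549 the OAS1 probe sets lie on opposite sides of vehicle while both of ISG20 are below it.

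The difference in exposure response between the lines was tested in a model with a line by exposure term, read as the A549 change minus the HTB-182 change. It called 3 members, all lower, against 1.99% of all genes called lower and 4.6% called at all. They were IFIH1 (-1.21, SE 0.20), OAS1 (-1.08, SE 0.26) and ISG20 (-0.91, SE 0.23). IFIH1 passed the filter through the exposed HTB-182 arrays, so it had to differ in this direction to be tested. It is given by size only, and its call is no support for the count. The change of IFIH1 was 1.07 in HTB-182 and -0.14 in A549. For OAS1 it was 0.19 and -0.89, and for ISG20 0.18 and -0.73. The median over the 26 members was -0.26 and over all genes -0.17. This model matches each vehicle array exactly, so the calls assume that the lone vehicle arrays vary like the exposed ones. It could not be fitted without either of them. For IFIH1 all A549 arrays and the HTB-182 vehicle array are below the filter, so the term compares the exposed HTB-182 arrays with signal near the floor. The IFIH1 term ran from -1.86 to -0.595 over the 15 other settings in which it was tested, all with both vehicle arrays. The calls of OAS1 and ISG20 were lost without the estradiol plus tamoxifen array or the estradiol-BSA plus tamoxifen array of either line, and with median scaling, which left IFIH1 alone. OAS1 also lost its call with no filter on low values. With the mean over all probe sets of a gene, the OAS1 term turned to 0.08 (limma adjusted p = 0.819).

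Of the 19 other interferon-induced genes, IFITM2 (1.65) and TRIM5 (1.59) were called higher by the same term, against 2.61% of all genes. Both rest on the single A549 vehicle array. TRIM5 read 17.8 ± 2.48 in HTB-182, below the filter by mean, so its term sets A549 against signal near the floor. IFITM2 read 532 with vehicle and 1365 to 2057 with exposure in A549, and TRIM5, a retroviral restriction factor, 35.2 and 75.1 to 165. A term for a different tamoxifen response in the lines called 0 members and 0% of all genes (limma, smallest adjusted p among the 26 members 0.971). Over all genes, 260 had an unadjusted p under 0.05 by limma.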

How the data were processed

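RNA from each culture was labelled and hybridised to Affymetrix human expression arrays, per the labels' protocols. The authors deposited 1 table of linear intensity values, made with MAS5 per the submitters' processing notes (version and scaling not given in the sources used here). Of 54675 probe sets, 62 controls were left out, and 41091 name 1 gene, 1801 several and 11721 none. The deposited intensity was transformed as log2(intensity + 16). Genes at or above the median mean log2 value (5.16) were tested with limma 3.58.1 in R 4.3.3: an additive model of line and treatment, and models with a line by exposure or line by tamoxifen term, with an intensity trend and adjustment by Benjamini-Hochberg over 12979 genes (threshold 0.05). The line or treatment pairs the arrays in every model. Members and lists were chosen with earlier results of these data known. Full values are given for members past the threshold with the same sign in 5 of 5 pairs (up to 12 per direction), and, within a line, for up to 5 per direction at least 1.5-fold from vehicle. For each pathway list up to 4 called genes and the receptors are named. Alternatives were the pseudocount, filter, scaling, probe set choice, array weights, intensity trend and leaving out arrays. On simulated data with 12979 genes, few of them changed and with independent noise, the line comparison recovered 98% of changes of log2 1, and estradiol against vehicle 75%. The real arrays hold many line differences and a vehicle array that stands apart, so these rates need not hold for them.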

Additional observations from a re-analysis of the deposited data

Results flagged for a closer look

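Among 52 sets of 5 arrays (26 genes in each line), 4 held an array far from the rest, and chance gives about 1 in 20. The A549 vehicle array was the highest for OAS1 (373), HERC5 (93.2) and ISG20 (229). In HTB-182 the estradiol array was the lowest for TRIM21 (29.7). The response to exposure differed between the lines by limma for IFIH1 (-1.21), OAS1 (-1.08) and ISG20 (-0.91), as log2 A549 minus HTB-182, in a model that takes each line's lone vehicle array to vary like the exposed arrays. For OAS1 the other probe set went the opposite way in A549, and with the mean over probe sets its term was 0.076 (limma adjusted p = 0.819). For IFIH1 the A549 arrays and the HTB-182 vehicle array were below the filter, so it was tested only through the exposed HTB-182 arrays and its call is no support.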

How the results depend on the processing

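For the line difference, OASL was the only one of the 14 called members above the filter in both lines that lost its call in some alternative (9 of 19). Over the alternatives 7812 to 9360 genes were called. Counted over every tested member, 11 to 15 were called higher and 5 to 7 lower, against 13 and 6 in the main setting. These counts include the 5 members that reached the filter in 1 line alone, whose direction was fixed by the filter. They are thus not ranges for the 10 higher and 4 lower among members at the filter in both lines. Of the 7 members without a call, EIF2AK2 turned to 0.071 with the mean over probe sets, IRF7 to -0.015 with array weights and -0.025 without both vehicle arrays (chosen after seeing the data), and PARP9 to 0.017 without both vehicle arrays. Leaving out 1 array gave -0.11 to 0.027 for HERC5, -0.025 to 0.13 for IRF7 and -0.093 to 0.025 for PARP9.

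The line by exposure count of 597 genes became 186 with the mean over probe sets and 2091 with array weights, and 287 to 3035 without single arrays. Members called lower, 3 in the report, became 1 with median scaling or the mean over probe sets and 5 with array weights, and were 1 to 5 without single arrays (5 without the estradiol array of either line). With the mean over probe sets OAS1 became 0.076 in this term and 0.20 within A549. Median scaling moved the median of all genes in this term from -0.17 to -0.01 and the share of higher calls from 56.8% to 88.1%, and quantile normalization moved that share to 66.5%. The line by tamoxifen count of 0 became 105 with array weights and was 0 to 4 without single arrays. Estradiol-BSA against estradiol went from 1 gene to 0 with quantile normalization, median scaling, the mean over probe sets or no intensity trend, to 2 without both vehicle arrays, and was 0 to 2 without single arrays.

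Against vehicle, leaving out 1 array gave 0 to 1078 genes for estradiol, 0 to 2058 for estradiol-BSA, 0 to 1754 for estradiol plus tamoxifen, 0 to 2104 for estradiol-BSA plus tamoxifen and 0 to 2840 for any exposure. Members called lower were 0 to 3, 0 to 3, 0 to 5, 0 to 5 and 0 to 6, and higher 0 to 1 for estradiol and for any exposure. The highest of these counts came when the vehicle array of HTB-182 was left out, so that A549 alone supplied vehicle, and any exposure then called HERC6, IRF1, ISG15, ISG20, MX1 and OAS1 lower. With the A549 vehicle array left out, HTB-182 alone supplied it, and IFIH1 was the member counted as higher. Its log2 change was 1.21 for estradiol and 1.07 for any exposure, given without a p since IFIH1 passed the filter through the exposed arrays. In these fits probe sets and filter were those of all arrays. The line by exposure term could not be fitted without either vehicle array. No paired analysis was possible because the labels give no replicate numbers that groups share beyond the line and treatment already in each model. Signal near the filter limits the 9 untested members, IFIH1, IFI27 and MX1 in A549, and IFIT2, IFIT3, IFITM1 and DDX60 in HTB-182.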
